A study of Mus musculus with 12 samples.

Results

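Cytochrome c oxidase, complex IV of the respiratory chain, carries nuclear-encoded subunits that exist as paired isoforms, and 9 genes for 4 of them were followed here in mouse interscapular brown adipose tissue (BAT). The members were the rows of the TPM table whose gene symbol was *Cox4i1*, *Cox4i2*, *Cox6a1*, *Cox6a2*, *Cox7a1*, *Cox7a2*, *Cox7a2l*, *Cox8a* or *Cox8b*, and all 9 were found among 25124 listed genes. The libraries came from 10-week-old male mice on a C57B/6J background, either *Txnip*-deficient (*Txnip*-/-) or WT, that were kept at room temperature (RT, 23 °C) or acclimated to thermoneutrality (TN, 30 °C) for 1 week. Each of the 4 combinations of genotype and temperature had 3 libraries, and a group is named by both, as in RT WT or TN *Txnip*-/-. The deletion is constitutive, so it is carried by every cell type of the mouse and not by brown adipocytes alone. Levels are given in TPM (reads per transcript length, scaled by the authors for each library), which over the listed genes summed to 55.38 to 57.55% of the nominal TPM total. Values are compared on that scale, and differences are log2 fold changes of TPM + 1 with their standard error (SE) from limma. A gene was called when its fold change was below 0.8 or above 1/0.8 and its p, adjusted over all genes tested, was under 0.05.

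Complex IV passes electrons from cytochrome c to oxygen and pumps protons across the inner mitochondrial membrane. Its catalytic core is encoded by mitochondrial DNA, and the nuclear subunits around it tune assembly, stability and regulation. In most tissues the ubiquitous (liver-type) isoforms *Cox4i1*, *Cox6a1*, *Cox7a2* and *Cox8a* are used. Heart and skeletal muscle replace several of them with the isoforms *Cox6a2*, *Cox7a1* and *Cox8b*, and brown fat is known to share *Cox7a1* and *Cox8b* with muscle. *Cox4i2* is the isoform of lung and of some vascular cells and is known for its response to oxygen. *Cox7a2l* belongs to the Cox7a family but is known for joining complex III and complex IV into supercomplexes.

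The 9 genes are scattered over 7 chromosomes (mm10). *Cox8b* lies on chromosome 7 from 140898942 to 140900446, *Cox7a1* on chromosome 7 from 30184171 to 30186030 and *Cox6a2* on chromosome 7 from 128205435 to 128206366. *Cox8a* lies on chromosome 19 from 7215158 to 7217616 and *Cox7a2* on chromosome 9 from 79755241 to 79759853. No member of a pair neighbours its partner. *Cox4i1* lies on chromosome 8 from 120668320 to 120674209 and *Cox4i2* on chromosome 2 from 152754173 to 152765037. *Cox6a1* lies on chromosome 5 from 115345623 to 115348958, and *Cox7a2l* on chromosome 17 from 83501917 to 83514333. A pair of them overlap another gene: *Cox4i1* shares 154 exon bases with *Emc8* on the opposite strand, and *Cox6a2* shares 70 with *Itgad* on the opposite strand. The sources used here do not say whether reads were counted by strand, so reads in these bases cannot be assigned to 1 of the genes. *Cox7a2l* has 1 pseudogene with 98.0% identity over 342 bases, and its level is uncertain to the extent that reads were split between them.

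The promoters of the Cox8 and Cox7a pairs are shown because these pairs carry the changes described below. RefSeq promoters (GRCm38.p6, 250 bases before to 50 after the annotated start, 300 in all) were at hand for 6 of the 9 genes, not for *Cox4i1*, *Cox4i2* or *Cox6a2*. Each sequence runs 5′ to 3′ on the strand of its gene, and capitals mark CpG dinucleotides, the methylatable pairs that are dense in promoters of ubiquitously used genes. The intervals are chr7:140900397-140900696 (minus strand) for *Cox8b*, chr19:7217567-7217866 (minus strand) for *Cox8a*, chr7:30183921-30184220 (plus strand) for *Cox7a1* and chr9:79759804-79760103 (minus strand) for *Cox7a2*.
Cox8b: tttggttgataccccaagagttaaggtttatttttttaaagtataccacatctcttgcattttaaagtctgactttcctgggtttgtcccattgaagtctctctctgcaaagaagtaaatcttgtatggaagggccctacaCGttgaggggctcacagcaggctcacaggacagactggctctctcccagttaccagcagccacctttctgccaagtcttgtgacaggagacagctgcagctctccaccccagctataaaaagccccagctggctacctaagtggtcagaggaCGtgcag
Cox8a: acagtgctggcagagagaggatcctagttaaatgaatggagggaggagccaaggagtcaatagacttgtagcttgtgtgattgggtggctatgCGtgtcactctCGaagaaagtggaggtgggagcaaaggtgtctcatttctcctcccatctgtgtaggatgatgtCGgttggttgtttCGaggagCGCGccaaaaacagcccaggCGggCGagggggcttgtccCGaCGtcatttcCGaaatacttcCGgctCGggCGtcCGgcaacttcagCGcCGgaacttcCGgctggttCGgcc
Cox7a1: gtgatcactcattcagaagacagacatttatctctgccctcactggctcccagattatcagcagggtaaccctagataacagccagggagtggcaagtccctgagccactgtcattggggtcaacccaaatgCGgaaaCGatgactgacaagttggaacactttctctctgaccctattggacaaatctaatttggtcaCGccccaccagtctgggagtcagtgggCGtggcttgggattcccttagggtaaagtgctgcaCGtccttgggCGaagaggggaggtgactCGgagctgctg
Cox7a2: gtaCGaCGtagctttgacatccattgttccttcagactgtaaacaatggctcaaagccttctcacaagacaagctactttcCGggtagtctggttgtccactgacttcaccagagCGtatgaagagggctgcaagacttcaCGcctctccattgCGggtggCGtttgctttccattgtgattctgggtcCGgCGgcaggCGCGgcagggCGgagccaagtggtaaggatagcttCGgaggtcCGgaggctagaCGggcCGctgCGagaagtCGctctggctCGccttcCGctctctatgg
The tissue-type promoters held fewer CpGs than their ubiquitous partners. The *Cox8b* window held 2 CpGs against 19 in that of *Cox8a*, and the *Cox7a1* window held 7 against 20 in that of *Cox7a2*. The median of 32817 mouse promoters of the same length was 7, and 14.1% of them held fewer CpGs than *Cox8b* while 72.0% held fewer than *Cox8a*. The other ubiquitous promoters held 32 (*Cox6a1*) and 19 (*Cox7a2l*). *Cox8b* was the only window of the 6 with a TATA box (TATAAA, in 13.6% of all promoters), which began 5 bases after the annotated start. The ETS motif CCGGAAG, found in 8.86% of promoters, occurred 2 times in *Cox8a*, at -5 and 33, and 1 time in *Cox6a1*. The nuclear respiratory factor 1 motif GCGCATGC, in 2.71% of promoters, occurred in *Cox6a1* as 2 overlapping matches that began at -162 and -160. The Sp1 motif GGGCGG (35.6% of promoters) was in *Cox6a1*, *Cox7a2* and *Cox7a2l*, and the E-box CANNTG (72.3%) in all but *Cox6a1*. None of the 6 windows held the motifs TCAAGGTCA (estrogen-related receptors, 0.424% of promoters), AGGTCA (a nuclear receptor element, 16.3%), TGACGTCA (cyclic AMP response element, 1.79%) or TAAAAATAG (MEF2, 0.494%). All motifs were searched on both strands, and a match is a run of letters, not a bound site.

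The labels were checked with *Txnip*, the redox regulator that is missing in *Txnip*-/- mice. It had 564 to 694 TPM in RT WT and 24.8 to 35.4 in RT *Txnip*-/- libraries, and 1072 to 1238 TPM in TN WT and 10.5 to 14.4 in TN *Txnip*-/- libraries. Brown adipocyte markers were present throughout, with a summed level of the 10 genes at RT of 6945 to 7327 TPM in WT and 5197 to 6913 TPM in *Txnip*-/- libraries, and at TN of 3494 to 3694 and 2051 to 2429 TPM. Markers of other cells also moved with the groups. The 15 skeletal muscle markers, with *Acta1*, *Ckm* and *Myh4* among them, summed at RT to 6.83 to 7.63 TPM in WT and 32.4 to 79.3 TPM in *Txnip*-/- libraries, and at TN to 9.31 to 31.7 and 9.24 to 27.2 TPM. Muscle RNA thus made up a small part of every library but stood apart in RT *Txnip*-/-, where 9 of the 10 markers tested were called higher. The 6 macrophage markers summed to 45.8 to 49.98 TPM in WT and 78.8 to 139 TPM in *Txnip*-/- libraries at RT, and to 108 to 196 and 313 to 433 TPM at TN. In such bulk tissue, fewer cells of a type and less RNA per cell cannot be told apart. Libraries of 1 group correlated at 0.985 to 0.993 across genes.

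**Figure D1:**
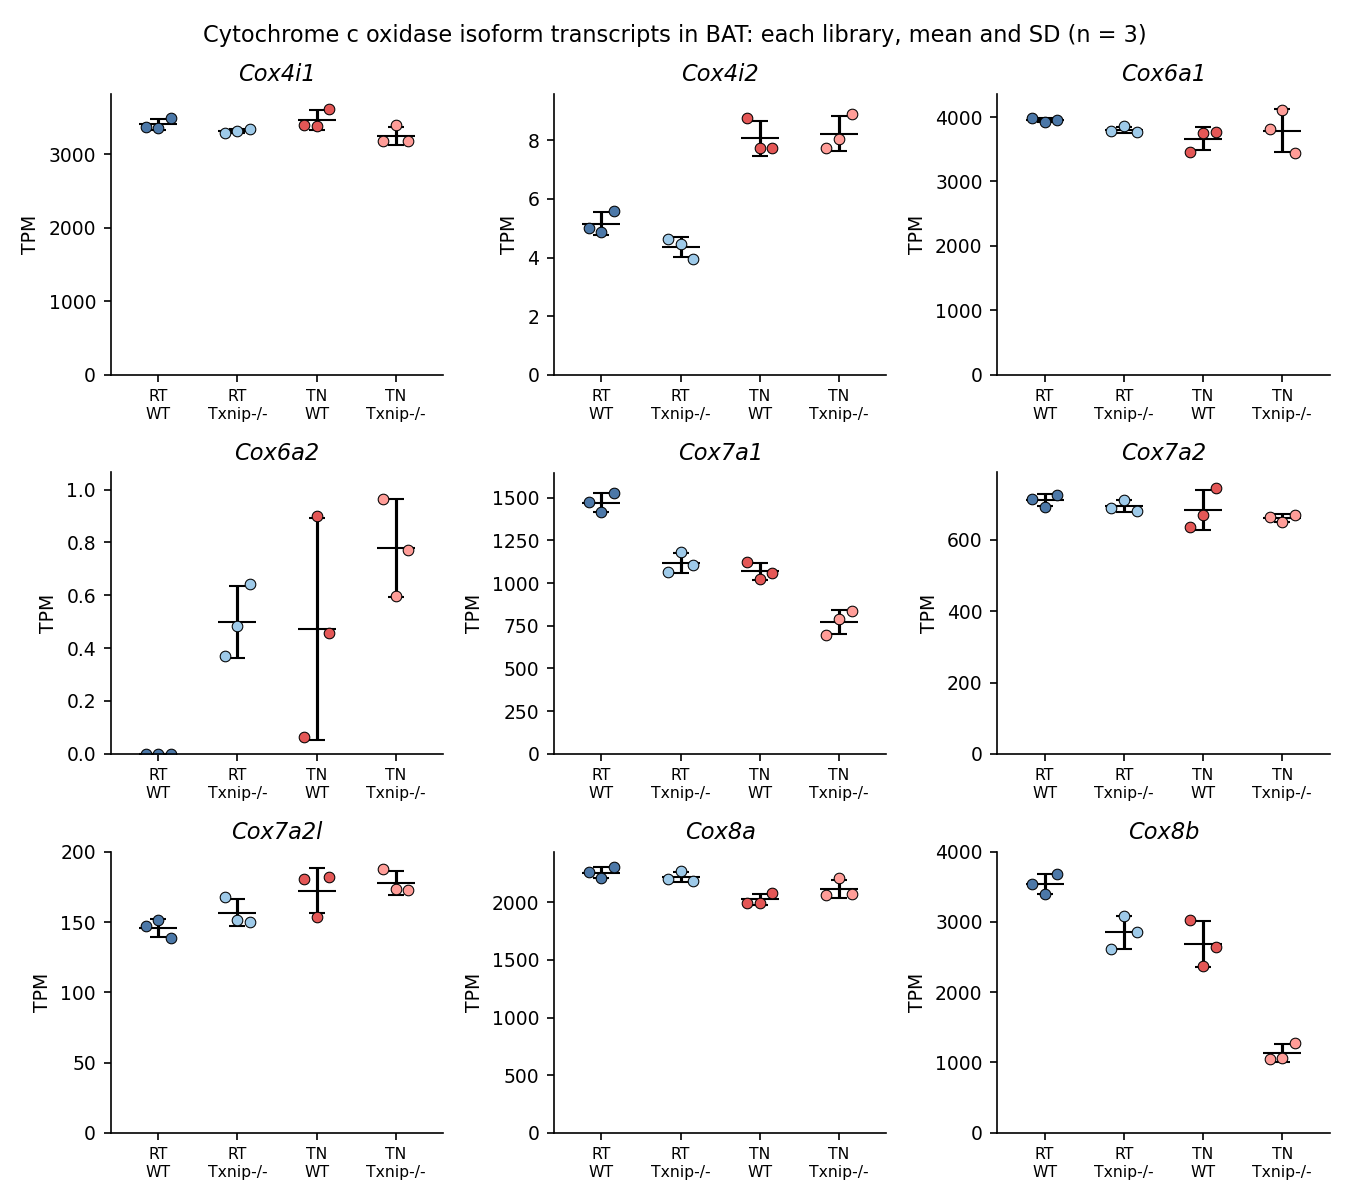
Level of each of the 9 isoform genes in TPM (y axis, from 0, a scale of its own in each panel) in the 4 groups. Points are single libraries, the horizontal bar is the group mean and the whiskers are 1 SD (n = 3). *Cox8b* and *Cox7a1* are highest in RT WT and lowest in TN *Txnip*-/-, *Cox4i2* is higher at TN in both genotypes, and *Cox4i1*, *Cox6a1*, *Cox7a2* and *Cox8a* stay within a narrow band.

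In WT BAT at RT the isoforms differed by orders of magnitude, on the per-length TPM scale. *Cox6a1* (3955 ± 26.6 TPM, SD, n = 3), *Cox8b* (3539 ± 139) and *Cox4i1* (3408 ± 75.3) came first, and they ranked 6, 9 and 11 among all 25124 genes. The spreads of *Cox8b* and *Cox4i1* overlapped. *Cox8a* (2258 ± 49.5 TPM), *Cox7a1* (1472 ± 56.3), *Cox7a2* (711 ± 16.7) and *Cox7a2l* (146 ± 6.58) followed, each apart from the next beyond its spread. *Cox4i2* had 5.16 ± 0.383 TPM and *Cox6a2* was listed at 0 in all 3 libraries. BAT at RT thus used the tissue-type isoform as the more abundant one in the Cox8 and Cox7a pairs, and almost none of it in the Cox4 and Cox6a pairs. In TN *Txnip*-/- BAT the order had changed: *Cox8b* had gone from rank 9 to rank 51 and *Cox7a1* from 41 to 93, while *Cox8a* (rank 17) now stood above *Cox8b*.

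*Cox8b* encodes the muscle- and brown-fat-type form of a small subunit of the membrane part and *Cox8a* the ubiquitous form. *Cox8b* had 3539.5, 3401 and 3678 TPM in RT WT libraries and 2617, 3084 and 2856 in RT *Txnip*-/- libraries. It had 3028, 2379 and 2648 TPM in TN WT libraries and 1052, 1068 and 1282 in TN *Txnip*-/- libraries. The groups did not overlap between genotypes at either temperature, and the TN *Txnip*-/- libraries lay below every other library. At TN the difference between genotypes was -1.24 ± 0.12 (SE; limma adjusted p = 0.00297), so *Cox8b* fell by 57.7% and was called. At RT it was -0.31 ± 0.07 (limma adjusted p = 0.0901) and did not pass the test. *Cox8a* had 2263, 2207 and 2306 TPM in WT and 2204, 2271 and 2187 in *Txnip*-/- libraries at RT, and 1998, 1995 and 2083 in WT and 2066, 2209 and 2075 in *Txnip*-/- libraries at TN. Its genotypes overlapped at both temperatures, with a log2 fold change of -0.02 ± 0.05 at RT (limma adjusted p = 0.854) and 0.06 ± 0.08 at TN (limma adjusted p = 0.661).

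The balance of the pair can be read within each library, where the scaling of the library cancels. *Cox8b* made up 61.0, 60.6 and 61.5% of the summed Cox8 TPM in RT WT and 54.3, 57.6 and 56.6% in RT *Txnip*-/- libraries. It made up 60.2, 54.4 and 56.0% in TN WT and 33.7, 32.6 and 38.2% in TN *Txnip*-/- libraries. On the TPM scale *Cox8b* was thus the major Cox8 transcript in 3 of the 4 groups and the minor one in all 3 TN *Txnip*-/- libraries. The transcript lengths were 359 bases for *Cox8b* and 541 for *Cox8a*, and which form is the major one depends on them. Over both temperatures the *Cox8b*/*Cox8a* ratio was lower in *Txnip*-/- than in WT mice by 0.80 on the log2 scale, a 1.74-fold difference (exact two-sided permutation test of genotypes within temperatures, 400 relabellings, p = 0.005, the smallest it can give). The difference was -0.29 at RT and -1.31 at TN, and each of these comparisons of 3 against 3 libraries gave an exact permutation p of 0.10, which is the smallest possible. Over both genotypes the ratio was 1.69-fold lower at TN than at RT (exact permutation p = 0.005). This mean joins unlike values: the ratio was 1.19-fold lower in WT and 2.40-fold lower in *Txnip*-/- mice. Each of these gave an exact permutation p of 0.10, again the smallest possible.

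*Cox7a1* encodes the muscle- and brown-fat-type form of subunit VIIa, which sits at the face where complex IV meets other complexes, and *Cox7a2* the ubiquitous form. *Cox7a1* had 1473, 1415 and 1527 TPM in WT and 1064, 1179.9 and 1106 in *Txnip*-/- libraries at RT. It had 1123, 1026 and 1060.3 TPM in WT and 697, 788 and 836 in *Txnip*-/- libraries at TN. RT *Txnip*-/- and TN WT libraries overlapped, RT WT libraries lay above them and TN *Txnip*-/- libraries below. The difference between genotypes was -0.40 ± 0.06 at RT (limma adjusted p = 0.0289) and -0.47 ± 0.09 at TN (limma adjusted p = 0.0184), so *Cox7a1* was called at both temperatures and fell by 24.1% at RT and fell by 27.8% at TN. Both calls were close to the threshold. At RT the call was held in 1 of 6 fits that each left out a library (adjusted p 0.0436 to 0.117) and at TN in 3 of 6 (0.0226 to 0.0703), with the value lower in *Txnip*-/- libraries in each of them. Both calls were also lost with no filter on low values (limma adjusted p = 0.0911 at RT and 0.0709 at TN), and that at RT with the authors' log2 values (-0.30 log2), which missed the fold threshold.

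*Cox7a2* had 693 to 727 TPM in WT and 682 to 713 in *Txnip*-/- libraries at RT, and 636 to 746 and 649 to 671 TPM at TN. Its genotypes overlapped at both temperatures, and its log2 fold changes were -0.03 ± 0.05 at RT (limma adjusted p = 0.783) and -0.05 ± 0.08 at TN (limma adjusted p = 0.776). *Cox7a1* accordingly made up 67.4, 67.1 and 67.8% of the summed *Cox7a1* and *Cox7a2* TPM in RT WT and 60.7, 62.3 and 61.9% in RT *Txnip*-/- libraries. It made up 63.8, 60.4 and 58.7% in TN WT and 51.2, 54.8 and 55.5% in TN *Txnip*-/- libraries. On the TPM scale *Cox7a1* thus remained the major form in all 12 libraries, although in TN *Txnip*-/- BAT it was close to parity. The transcript lengths were 360 bases for *Cox7a1* and 748 for *Cox7a2*, and which form is the major one depends on them. The *Cox7a1*/*Cox7a2* ratio was 1.32-fold lower in *Txnip*-/- than in WT mice over both temperatures (exact two-sided permutation p = 0.005) and 1.35-fold lower at TN than at RT over both genotypes (exact permutation p = 0.005). Its genotype difference was -0.37 at RT and -0.43 at TN on the log2 scale. In all, 18 exact tests of ratios were made over 3 pairs, of which 6 ran over all libraries and 12 within 1 temperature or 1 genotype.

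**Figure D2:**
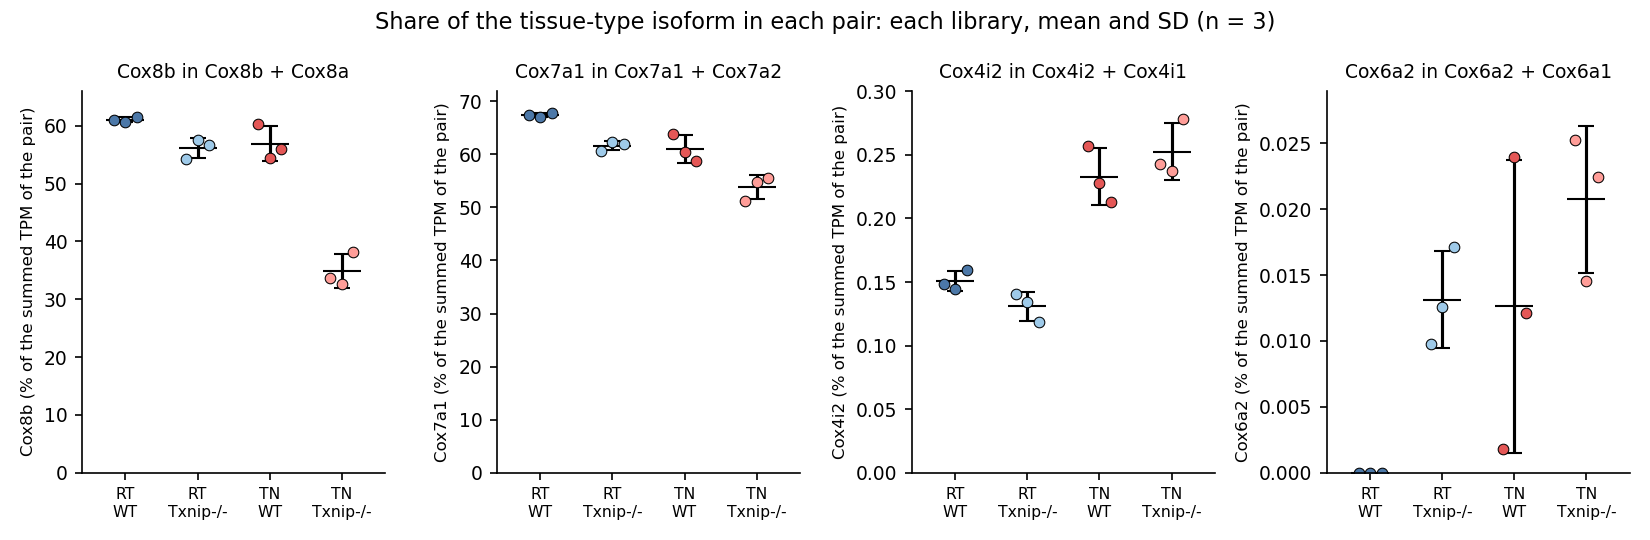
Share of the tissue-type isoform in the summed TPM of its pair, in percent (y axes from 0, each with its own scale), for single libraries (points) with the group mean and SD (n = 3). *Cox8b* lies under 40% in the 3 TN *Txnip*-/- libraries while the other 9 lie between 54.3 and 61.5%, *Cox7a1* runs from a mean of 67.4% in RT WT to 53.8% in TN *Txnip*-/-, and the *Cox4i2* and *Cox6a2* shares stay under 0.3%.

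*Cox7a2l*, the supercomplex factor, had 147, 152 and 139 TPM in WT and 168, 152 and 150.5 in *Txnip*-/- libraries at RT, and 181, 154 and 182 in WT and 188, 173 and 173 in *Txnip*-/- libraries at TN. Its genotypes overlapped at RT and at TN, with log2 fold changes of 0.10 ± 0.06 (limma adjusted p = 0.501) and 0.05 ± 0.08 (limma adjusted p = 0.767). At TN against RT it was 0.23 ± 0.08 in WT mice (limma adjusted p = 0.0230) and 0.18 ± 0.08 in *Txnip*-/- mice (limma adjusted p = 0.0620), both under the fold threshold and close to the shift of the median gene given below.

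Among the 8 members that entered the genotype tests, 1 was called lower at RT against a background of 0.726% of 11980 genes, and 2 at TN against 2.17% of 12891 genes. None was called higher. Their median log2 fold change was -0.05 at RT and -0.01 at TN, beside medians of 0.03 and 0.01 over all genes tested. The genotypes did not overlap for 5 of 8 members at RT, where 22.6% of all genes tested had groups that do not overlap, and for 2 of 8 at TN, where 31.1% had. The 5 at RT were *Cox4i1*, *Cox4i2*, *Cox6a1*, *Cox7a1* and *Cox8b*, and for *Cox4i1* and *Cox6a1* the difference was a few percent (-0.04 ± 0.05 and -0.06 ± 0.05, limma adjusted p = 0.749 and 0.615).

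Skeletal muscle expresses *Cox7a1* and *Cox8b* too. At RT the muscle markers were higher in *Txnip*-/- libraries while *Cox7a1* and *Cox8b* values were lower, and at TN 0 of the 5 muscle markers tested were called in either direction. Among the 10 brown adipocyte markers, 1 was called lower at RT and 4 at TN, and none higher, and among the 6 general adipocyte markers, such as *Adipoq* and *Plin1*, none was called at either temperature. Of the macrophage markers, 2 of 5 tested were called higher in *Txnip*-/- mice at RT and 6 of 6 at TN, beside 0.76% and 6.49% of all genes tested. The part of these cell types in the isoform values was not tested.

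*Cox4i1* encodes the ubiquitous form of subunit IV, an early-assembling subunit, and was steady over the groups. It had 3355 to 3494 TPM in WT and 3296 to 3343 in *Txnip*-/- libraries at RT, and 3383 to 3620.4 and 3176 to 3394 TPM at TN, and no comparison called it. *Cox4i2* had 5.02, 4.87 and 5.59 TPM in RT WT and 4.64, 4.47 and 3.96 in RT *Txnip*-/- libraries. It had 8.76, 7.73 and 7.73 TPM in TN WT and 7.72, 8.06 and 8.90 in TN *Txnip*-/- libraries. All 6 TN libraries lay above all 6 RT libraries, while the genotypes overlapped at TN and lay next to each other at RT. The genotype difference was -0.20 ± 0.09 at RT (limma adjusted p = 0.355) and 0.02 ± 0.08 at TN (limma adjusted p = 0.895). *Cox4i2* thus moved with temperature and not detectably with genotype. It made up 0.118 to 0.1598% of the summed Cox4 TPM at RT and 0.213 to 0.278% at TN. The *Cox4i2*/*Cox4i1* ratio was 1.72-fold higher at TN over both genotypes (exact two-sided permutation p = 0.005), and its mean genotype difference was -0.04 on the log2 scale (exact permutation p = 0.625). *Cox4i2* is known from vascular cells, and the 8 pericyte markers, with *Rgs5* the most abundant, summed to 264 to 278 TPM in WT and 236 to 269 in *Txnip*-/- libraries at RT, and to 321 to 355 and 299 to 333 TPM at TN. At TN against RT, 4 of the 8 were called higher and 2 lower in WT mice, and 3 higher and 1 lower in *Txnip*-/- mice, while of 4 smooth muscle markers none was called. The 5 endothelial markers, such as *Cdh5* and *Pecam1*, summed to 227 to 244 TPM in WT and 193 to 231 in *Txnip*-/- libraries at RT, and to 278 to 347 and 309 to 345 TPM at TN. At TN against RT, 3 of the 5 were called higher in WT and 5 of 5 in *Txnip*-/- mice, none lower, with median log2 fold changes of 0.41 and 0.52, where 31.4% and 30.9% of all genes tested were called higher. With upper-quartile normalization, which sets the libraries to a common upper quartile, 1 and 3 of the 5 were called higher, beside 17.4% and 21.1% of all genes tested, and *Cox4i2* was called in both genotypes. The part of endothelium and pericytes in the *Cox4i2* difference was not tested.

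*Cox6a1* encodes the ubiquitous form of subunit VIa and was the most abundant of the 9 transcripts in each of the 4 groups. It had 3926 to 3978 TPM in WT and 3766 to 3858 in *Txnip*-/- libraries at RT, and 3454 to 3769 and 3444 to 4107 TPM at TN, and no comparison called it. *Cox6a2*, the heart and skeletal muscle form, was listed at 0 in all 3 RT WT libraries. *Txnip*-/- libraries at RT had 0.370, 0.484 and 0.644 TPM, and at TN WT libraries had 0.062, 0.900 and 0.457 and *Txnip*-/- libraries 0.966, 0.597 and 0.773 TPM. All 9 libraries outside RT WT thus listed *Cox6a2* above 0, and their groups overlapped. Its mean was under 1 TPM and it did not enter the tests. It reached at most 0.0253% of the summed Cox6a TPM. The muscle markers stood at 48.6, 32.4 and 79.3 TPM in the same RT *Txnip*-/- libraries, and at TN at 12.2, 31.7 and 9.31 in WT and 9.24, 27.2 and 11.01 in *Txnip*-/- libraries. The *Cox6a2* values were thus highest in the TN *Txnip*-/- group and the muscle sums in the RT *Txnip*-/- group. *Itgad*, the leukocyte integrin gene that overlaps *Cox6a2* on the opposite strand, had at most 0.150 TPM. The part of muscle or leukocyte RNA in the *Cox6a2* values was not tested.

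The comparison of temperatures within a genotype has a shift of its own. On the TPM scale the median gene was 0.18 higher (log2) at TN than at RT in WT mice and 0.15 in *Txnip*-/- mice, with 3919 genes called higher and 798 lower in WT and 3858 and 1033 in *Txnip*-/- mice. With upper-quartile normalization the medians were 0.02 and 0.01, and the calls were 2172 higher and 1756 lower in WT and 2629 and 2080 in *Txnip*-/- mice. Against this background, 1 of 8 members was called higher and 2 lower in each genotype. In WT mice the background was 31.4% of 12486 genes called higher and 6.39% lower, and in *Txnip*-/- mice 30.9% and 8.27%. The groups did not overlap for 6 of 8 members in WT mice and 5 of 8 in *Txnip*-/- mice, beside 57.5% and 61.1% of all genes tested. The median over the members was -0.09 in WT and -0.05 in *Txnip*-/- mice.

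The members called were the same 3 in both genotypes. *Cox4i2* was higher at TN, by 0.56 ± 0.09 in WT (limma adjusted p = 0.000456) and 0.78 ± 0.09 in *Txnip*-/- mice (limma adjusted p = 3.68e-05), or 0.37 and 0.63 above the median gene. *Cox7a1* was lower, by -0.46 ± 0.07 in WT (limma adjusted p = 0.000602) and -0.53 ± 0.07 in *Txnip*-/- mice (limma adjusted p = 0.000158). *Cox8b* was lower, by -0.40 ± 0.10 in WT (limma adjusted p = 0.00708) and -1.33 ± 0.10 in *Txnip*-/- mice (limma adjusted p = 8.3e-06), or -0.59 and -1.48 relative to the median gene. At TN *Cox8b* thus fell by 24.5% in WT and dropped by 60.3% in *Txnip*-/- mice. Cell type markers moved in the same comparisons. Of the 10 brown adipocyte markers, 5 were called lower and 2 higher at TN in WT mice, and 7 lower and 2 higher in *Txnip*-/- mice. In each genotype 2 of the 6 general adipocyte markers were called lower and none higher. Among 4 white adipocyte markers 2 were tested, and 1 was called higher in each genotype and none lower. The white adipocyte markers summed to 4.75 to 7.90 TPM in RT WT and 53.4 to 71.1 in TN WT libraries. In *Txnip*-/- libraries they summed to 3.58 to 13.3 TPM at RT and 39.8 to 75.8 at TN. Of the 10 skeletal muscle markers tested, none was called lower and 1 higher in WT mice, and 9 lower and 1 higher in *Txnip*-/- mice, while all 6 macrophage markers were called higher in both genotypes. The part of these cell types in the temperature differences was not tested. The call of *Cox8b* in WT mice was lost without TN WT replicate 2, the lowest of that group, where the change was -0.32 (limma adjusted p = 0.0329) and just missed the fold threshold. *Cox8a* was -0.16 ± 0.05 in WT mice (limma adjusted p = 0.0287), under the fold threshold, and with upper-quartile normalization it was -0.34 (limma adjusted p = 0.00168) and called. The change of *Cox4i1* in WT mice, 0.02 ± 0.06, was -0.16 with that normalization, so no direction can be given for it. The comparisons share libraries with each other: the RT WT group enters the genotype comparison at RT and the temperature comparison in WT mice, and so on for the other groups.

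Whether the genotype difference differed between temperatures was asked of each member with an interaction term. For *Cox8b* the term was -0.93 ± 0.15 (limma adjusted p = 0.0776), the furthest from 0 among the 8 members and not past the threshold. In fits that each left out 1 of the 12 libraries the adjusted p ranged from 0.0637 to 0.190. For *Cox7a1* the term was -0.07 ± 0.10 (limma adjusted p = 0.808) and for *Cox4i2* 0.23 ± 0.12 (limma adjusted p = 0.459). No member was called, and of all 12486 genes 1 was (0.00801%), *Txnip* itself, while 1571 had an unadjusted p under 0.05.

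**Figure D3:**
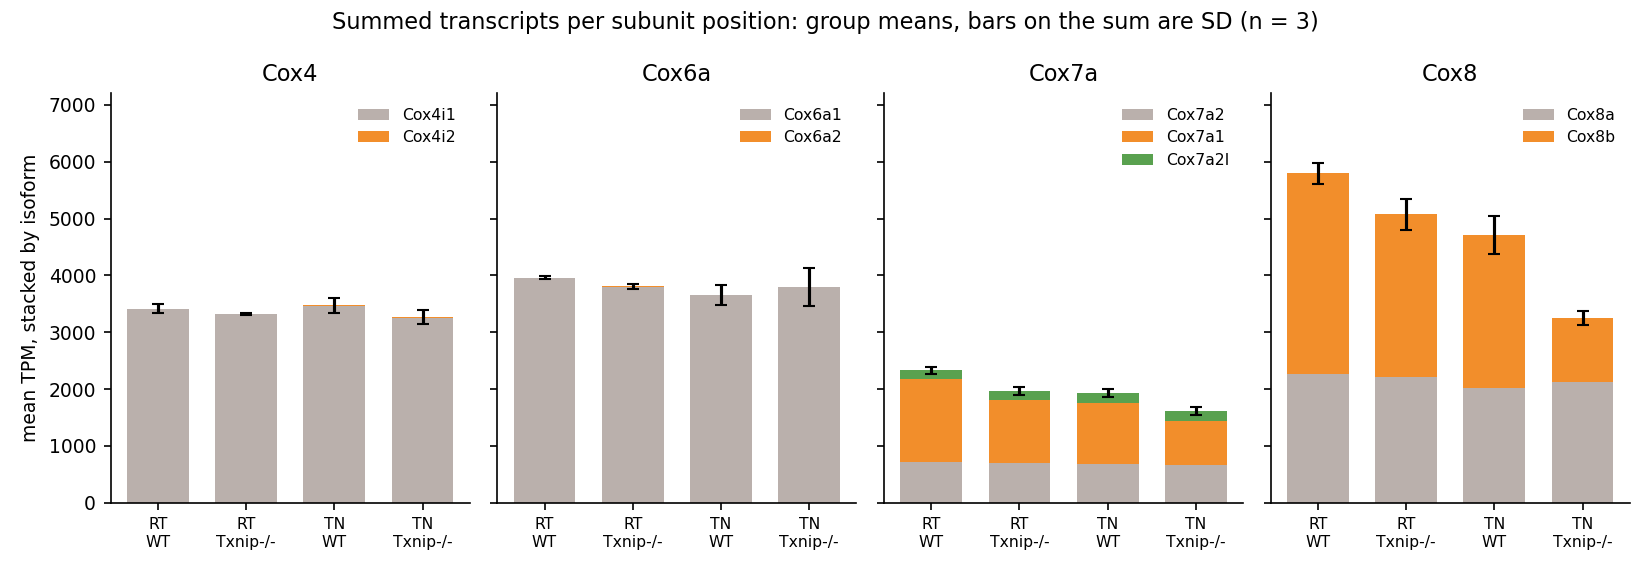
Mean TPM of the isoforms stacked for each subunit position (y axis, TPM from 0) in the 4 groups, with whiskers of 1 SD on the sum (n = 3). The Cox8 sum is 5798 TPM in RT WT and 3251 in TN *Txnip*-/- and the Cox7a sum 2329 and 1614, while the Cox4 and Cox6a sums stay between 3261 and 3955 TPM.

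The sums of the Cox8 and Cox7a positions followed their tissue-type forms. At RT the summed Cox8 TPM was 5798 ± 188 (SD, n = 3) in WT and 5073 ± 268 in *Txnip*-/- libraries, and at TN it was 4710.3 ± 326 and 3251 ± 122. The Cox7a sum, with *Cox7a2l*, was 2329 ± 66.5 and 1968 ± 66.8 TPM at RT and 1926 ± 69.7 and 1614 ± 64.8 TPM at TN. From RT WT to TN *Txnip*-/- the mean of the Cox8 sum differed by -43.9% and that of the Cox7a sum by -30.7%, with no test made on them. The Cox4 sum was 3413 ± 75.6 TPM in RT WT and 3261 ± 122 in TN *Txnip*-/-, and the Cox6a sum 3955 ± 26.6 and 3792 ± 333. The Cox8 sum was therefore 1.70 ± 0.026 times the Cox4 sum in WT and 1.53 ± 0.078 times in *Txnip*-/- libraries at RT, and 1.36 ± 0.103 and 0.998 ± 0.046 times at TN. The complex holds 1 copy of each subunit, and transcript sums do not measure protein.

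The rest of complex IV was read from lists of its other subunits and of its assembly factors. Of 13 other subunits, 8 entered the tests. The testis forms *Cox7b2* and *Cox8c* were under 1 TPM on average, and the 3 core subunits of the mitochondrial genome were not analysed here. None of the 8 was called between genotypes at RT or at TN, where their medians were -0.02 and -0.09. At TN the values furthest from 0 were those of *Cox7b* (-0.19 ± 0.07, limma adjusted p = 0.125) and *Cox6c* (-0.16 ± 0.07, limma adjusted p = 0.226). At TN against RT, 1 of 8 was called lower in each genotype, beside 6.39% of all genes tested in WT and 8.27% in *Txnip*-/- mice, and with upper-quartile normalization 3 and 4 of 8 were, beside 14.1% and 16.7%. On the TPM scale it was *Cox6b1*, the subunit that joins the monomers of the dimer, in WT mice (-0.32 ± 0.06, limma adjusted p = 0.00149), and *Cox7b* in *Txnip*-/- mice (-0.35 ± 0.06, limma adjusted p = 0.000344). *Cox6c*, next in *Txnip*-/- mice, had -0.28 ± 0.06 (limma adjusted p = 0.00169) and missed the fold threshold. All 8 lay below 0 in both genotypes, with medians of -0.14 and -0.19 where the median gene lay at 0.18 and 0.15.

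All 30 assembly factors entered the tests. At RT none was called, with values from -0.25 (*Cmc2*) to 0.29 (*Cox19*). At TN 2 of 30 were called lower in *Txnip*-/- mice, beside 2.17% of all genes tested, and none higher. They were *Cmc2* (-0.44 ± 0.07, limma adjusted p = 0.0095) and *Lrpprc* (-0.42 ± 0.07, limma adjusted p = 0.0133), which stabilizes mitochondrial messenger RNA. The highest value at TN was that of *Coa4* (0.28 ± 0.14, limma adjusted p = 0.258), which did not pass. The median of the 30 was -0.14 at TN and -0.01 at RT. At TN against RT, 4 were called lower and 1 higher in WT mice, and 7 lower and none higher in *Txnip*-/- mice, where 6.39% and 8.27% of all genes tested were called lower. *Cox19*, a copper-handling factor of the intermembrane space, fell furthest in both, by 0.64 and 0.65 on the log2 scale. The copper chaperones *Sco1* and *Sco2* and the hypoxia-induced factor *Higd1a* were also called lower in both genotypes, *Cox11*, *Cox17* and *Cmc2* in *Txnip*-/- mice, and *Cmc1* was called higher in WT mice (0.45 ± 0.08, limma adjusted p = 0.000877). With upper-quartile normalization 13 factors were called lower in WT and 16 in *Txnip*-/- mice, beside 14.1% and 16.7% of all genes tested, and *Cmc1* was not called.

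**Figure D4:**
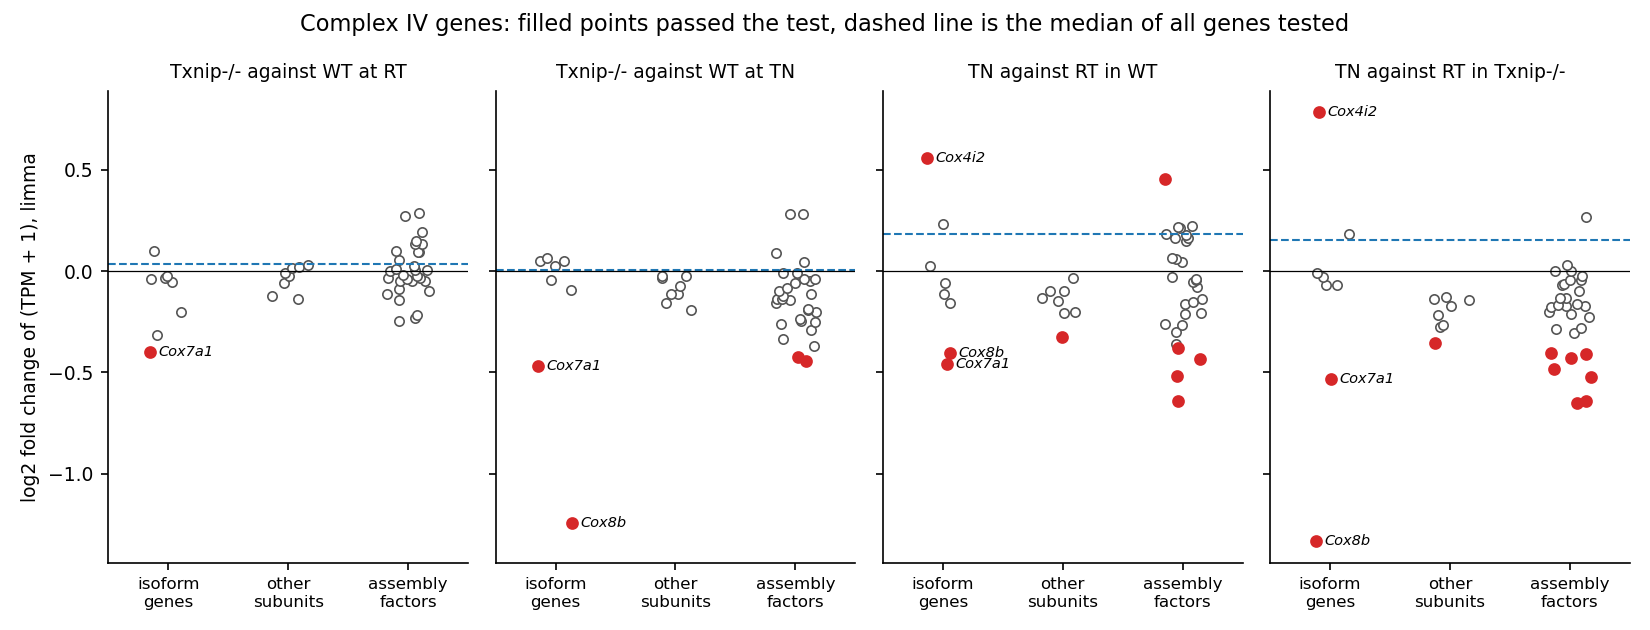
Log2 fold change of TPM + 1 (y axis) for the isoform genes, the other complex IV subunits and the assembly factors in 4 comparisons. Each point is a gene, filled where it passed the test, and the dashed line is the median of all genes tested. *Cox8b*, at -1.24 between genotypes at TN and -1.33 between temperatures in *Txnip*-/- mice, lies below every other gene shown, and *Cox4i2* lies above them in both temperature comparisons.

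*Cox8b* and *Cox7a1* were thus the only genes called among the 16 isoform and other subunit genes tested between genotypes, 8 of each kind. Relative to its own mean over the 12 libraries, the pattern of each tissue-type isoform was compared with 6599 genes of at least 10 TPM by the root mean square (RMS) difference of the centred log2 values. Nearest to *Cox8b* were *Traf4*, a signalling adaptor, at 0.219, *Letm1*, a cation exchanger of the inner mitochondrial membrane, at 0.254, and *Plin5*, a lipid droplet protein, at 0.267, beside an RMS of 0.637 for *Cox8b* around its own mean. Nearest to *Cox7a1* were *Mrpl16* at 0.0943 and *Mrps11* at 0.104, both of the mitochondrial ribosome, and *Ephx2*, an epoxide hydrolase, at 0.105, beside 0.338 for *Cox7a1* itself. All 6 had lower means in TN *Txnip*-/- than in RT WT libraries, with log2 differences from -0.69 for *Mrps11* to -1.53 for *Traf4*. This direction follows from choosing them for their likeness to *Cox8b* or *Cox7a1* in the same libraries. Nearest to *Cox4i2* were *Slc44a3* (0.103), *Cdc42ep2* (0.107) and *Fbxo36* (0.112), beside 0.352 for *Cox4i2*. Nearest to *Cox6a2*, whose values rest on very few reads, were *Kctd6* (0.165), *Maco1* (0.168) and *Tapbpl* (0.174), beside 0.356. These distances describe 12 libraries in 4 groups and carry no test.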

How the data were processed

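Reads were single-end and poly(A)-selected. Per the labels and methods, the authors aligned them to mm10 with STAR 2.7.5a and counted exon reads with HOMER 4.11.1, keeping 1 RefSeq transcript per gene. The deposited TPM values of 25124 genes were used, and no per-sample column was left unmatched. The authors' log2 values, normalized within each temperature by an unnamed transform, served as an alternative. Their fold changes and p-values were not used. Libraries held 29.93 M to 47.44 M reads. No labels tie libraries to a batch.

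limma 3.58.1 (R 4.3.3) was run with an expression trend on log2(TPM + 1) for genes of at least 1 TPM on average, with 6 libraries for genotypes and 12 for temperatures and interaction, and Benjamini-Hochberg adjustment over all genes. A fold change on this scale understates changes of low genes. Isoform ratios were tested by exact permutation. The fit of genotypes at RT was tested on simulated data. Pseudogenes were searched with BLAST 2.17.0 at 95% identity over 75 bases. The alternatives were other pseudocounts, filters, normalizations and fits, and each library left out. All 9 members were described in full, other complex IV genes by counts with those called and the extremes, and the 3 nearest genes per tissue-type isoform. The members and lists were chosen with earlier results of these data known. Replicates are separate libraries of 1 group, and nothing states that each is 1 mouse, so p-values measure the spread between libraries.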

Additional observations from a re-analysis of the deposited data

How the results depend on the processing

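The files give TPM and no counts, and 3 libraries a group limit the precision, so calls near the threshold move easily. The count of genes called between genotypes at RT (178) was 44 with no filter on low values, 272 with all 12 libraries in 1 fit, and 2 to 159 with a library left out, the 2 being without RT WT replicate 2. At TN (1116) it was 621 with no filter and 456 to 1005 with a library left out, and the interaction count (1) was 1 to 6. *Cox7a1* lost its calls with no filter (-0.40 ± 0.07 log2, limma adjusted p = 0.0911 at RT and -0.47 ± 0.10, limma adjusted p = 0.0709 at TN), where the fold changes were those of the filtered fit and the SEs were larger, and at RT with the authors' log2 values (-0.30 log2, limma adjusted p = 0.0472), where the fold threshold was missed. *Cox6a2* entered a fit only with no filter, and its values there (limma adjusted p = 0.0473 between genotypes at RT and 0.0368 between temperatures in WT mice) compare with RT WT libraries that all list it at 0 and rest on very few reads, so they are not read as calls. The calls of *Cox8b* at TN and in *Txnip*-/- mice, and of *Cox4i2* and *Cox7a1* between temperatures, were the same under every alternative run.

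Replicate numbers are shared by all groups in the sample titles. The authors' library names share them between genotypes only and number the temperatures apart. Deviations of libraries with the same number in the titles correlated at -0.01 to 0.3 at RT and -0.03 to 0.04 at TN between genotypes. Between temperatures they correlated at -0.139 to 0.173 in WT and -0.052 to 0.0402 in *Txnip*-/- mice. The numbers were therefore not taken as pairs. With the replicate block, 100 genes were called at RT, 977 at TN and 4 for the interaction. Under the block *Cox7a1* lost its call at RT (limma adjusted p = 0.0814) and at TN (limma adjusted p = 0.0519), and the exact permutation p within pairs was 0.0313 for the *Cox8b*/*Cox8a* and *Cox7a1*/*Cox7a2* genotype differences, the smallest it can give.

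Of 496 refits of members, 16 changed sign, all for values that were not called, and the cause was not tested. With upper-quartile normalization, the change of *Cox4i1* at TN against RT in WT mice was -0.16 and the interaction of *Cox7a2* was 0.011. With a library left out, the ranges that crossed 0 were -0.027 to 0.078 for *Cox4i2*, -0.011 to 0.116 for *Cox6a1*, -0.097 to 0.019 for *Cox7a2* and -0.030 to 0.091 for *Cox7a2l* between genotypes at TN. Between temperatures they were -0.0067 to 0.043 for *Cox4i1* in WT and -0.068 to 0.059 for *Cox6a1* in *Txnip*-/- mice, and for the interaction -0.13 to 0.0018 for *Cox7a1* and -0.063 to 0.052 for *Cox7a2*. Of 171 recomputed ratio differences none changed sign (*Cox8b*/*Cox8a* between genotypes at TN was -0.97 with the authors' log2 values), and the genotype and temperature differences tested over all libraries kept their side of the threshold.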
